A study of Mus musculus with 2 samples.

Results

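The 10 genes described here encode the major histocompatibility complex (MHC) class I pathway of the mouse, from the proteasome subunits that cut the peptides to the molecules that display them. They are H2-K1, H2-D1, B2m, Tap1, Tap2, Tapbp, Psmb8, Psmb9, Psmb10 and Nlrc5, taken by gene symbol from a table of 21113 genes, and all 10 were found. The tissue was mammary gland, taken in postnatal week 6 from the C57BL/6 strain. There was 1 wild-type library and 1 library from Mir212/132ILN/ILN, in which an IRES-LacZ-Neo cassette was inserted into the locus of these microRNAs on both alleles. The sources used here do not say how many animals gave each sample, and the microRNAs themselves were not analysed here, so nothing in these values checks the genotype. The libraries held 46133338 (wild type) and 42953129 (ILN/ILN) fragments assigned to genes, where a fragment is 1 sequenced piece of cDNA counted on a gene.

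Class I molecules consist of a heavy chain, encoded in C57BL/6 mice by H2-K1 or H2-D1, and the light chain beta-2-microglobulin, encoded by B2m. Nearly all nucleated cells carry them, and CD8 T cells and natural killer cells read them. Peptides come from the proteasome, whose catalytic subunits are exchanged in immune cells and after interferon for those encoded by Psmb8, Psmb9 and Psmb10, and they reach the endoplasmic reticulum through the Tap1-Tap2 transporter. Nlrc5 encodes a transactivator that acts at class I promoters, in the way that Ciita acts at class II promoters. In a fat-rich gland at this age, class I RNA can come from adipocytes, vessels, fibroblasts, epithelium, leukocytes and any lymph node left in the tissue.

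The promoters of 4 genes are shown, those of the heavy and light chains and that of Tap1, whose upstream sequence is shared with Psmb9. The sequences are the 250 bases before the transcription start in the RefSeq table of build GRCm38.p6, 5′ to 3′ on the strand of the gene. H2-K1 lies at chr17:34000334-34000583 on the minus strand, where the table lists a further start nearby, H2-D1 at chr17:35262844-35263093 on the plus strand, B2m at chr2:122147437-122147686 on the plus strand and Tap1 at chr17:34187306-34187555 on the plus strand. Capitals mark motif matches.
H2-K1: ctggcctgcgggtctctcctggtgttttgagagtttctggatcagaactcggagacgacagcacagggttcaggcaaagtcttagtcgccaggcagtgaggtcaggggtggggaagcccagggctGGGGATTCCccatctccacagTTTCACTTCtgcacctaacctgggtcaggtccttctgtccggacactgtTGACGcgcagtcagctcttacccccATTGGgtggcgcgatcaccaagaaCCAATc
H2-D1: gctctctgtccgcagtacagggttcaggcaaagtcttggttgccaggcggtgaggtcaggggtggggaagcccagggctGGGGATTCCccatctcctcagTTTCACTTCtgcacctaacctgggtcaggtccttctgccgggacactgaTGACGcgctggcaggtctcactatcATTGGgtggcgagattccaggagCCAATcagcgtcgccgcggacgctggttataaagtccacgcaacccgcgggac
B2m: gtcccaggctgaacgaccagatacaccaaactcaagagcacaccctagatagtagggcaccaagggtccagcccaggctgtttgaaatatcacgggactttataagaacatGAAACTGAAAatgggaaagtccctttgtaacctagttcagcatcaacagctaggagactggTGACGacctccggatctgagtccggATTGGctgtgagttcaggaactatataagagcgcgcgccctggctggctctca
Tap1: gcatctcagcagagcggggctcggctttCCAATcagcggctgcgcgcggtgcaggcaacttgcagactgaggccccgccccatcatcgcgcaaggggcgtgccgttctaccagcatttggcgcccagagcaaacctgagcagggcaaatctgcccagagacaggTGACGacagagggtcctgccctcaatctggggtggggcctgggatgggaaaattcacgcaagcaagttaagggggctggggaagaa

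In all, 8 motifs were searched on both strands. They were the X2 core TGACG, the Y box CCAAT, the cyclic AMP response element TGACGTCA (which contains the X2 core), the gamma-activated site TTCNNNGAA, the kappaB motif GGGANTTCC and the core of the interferon-stimulated response element (ISRE), which is GAAA, any pair of bases, then GAAA. The enhancer A kappaB motif GGGGATTCC and the class I ISRE TTTCACTTC were added after the sequences were seen. The H2-K1 and H2-D1 windows held the same 4 kinds of motif in the same order, namely the enhancer A kappaB motif, the class I ISRE, the X2 core and the Y box. Of the 203 bases that aligned between them, 177 were identical (87.2%). B2m held the ISRE core, the X2 core and the Y box, and its X2 core began 78 bases before the start, against 101 in H2-D1. Psmb9, on the opposite strand, starts next to Tap1, and their windows of 250 bases shared 225, with 1 X2 core and 1 Y box in common. In Tap1 the Y box began 222 bases before the start and the X2 core 86. That order is the reverse of the one in H2-K1, H2-D1 and B2m, where the X2 core lies further from the start.

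Among all 32851 windows of this length in the table, 17.8% held an X2 core, 33.8% a Y box, 2.98% the ISRE core, 7.02% the gamma-activated site, 1.55% the cyclic AMP response element, 1.43% the kappaB motif, 0.213% the enhancer A kappaB motif and 0.402% the class I ISRE. The Psmb8 window held a gamma-activated site alone, Tapbp held Y boxes alone, and the Psmb10 window held none of the 8 motifs. Tap2 and Nlrc5 had no window in the table. These matches describe letters in a window and do not show binding.

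The class I pathway differed little between the libraries. Of the 10 genes, 0 were at least 1.5-fold lower and 0 at least 1.5-fold higher in ILN/ILN on the log2(value + 1) scale, where the value is the deposited FPKM-like level per length and library size. Over all 11556 measured genes, those whose value reached 1 in one or both libraries, 5.39% were lower and 1.9% higher by that measure. The median log2 ratio of the 10 genes was -0.07, beside 0.02 over all measured genes, and 7 of the 10 lay between the 25th and 75th percentiles of all genes (-0.16 and 0.16). With 1 library per genotype no test was possible and no difference could be set against replicates. Parentheses hold 95% intervals that cover counting error alone, not the spread between animals or between dissections.

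Fragment ratios, corrected for library totals, ran from 0.881 for B2m to 1.03 for Nlrc5. The interval lay below 1 in 6 of the 10 genes, included 1 in 4 and lay above 1 in 0, where over all measured genes 29.2% lay below 1 and 33.1% above. A difference beyond counting error was therefore common among genes of any kind.

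**Figure D1:**
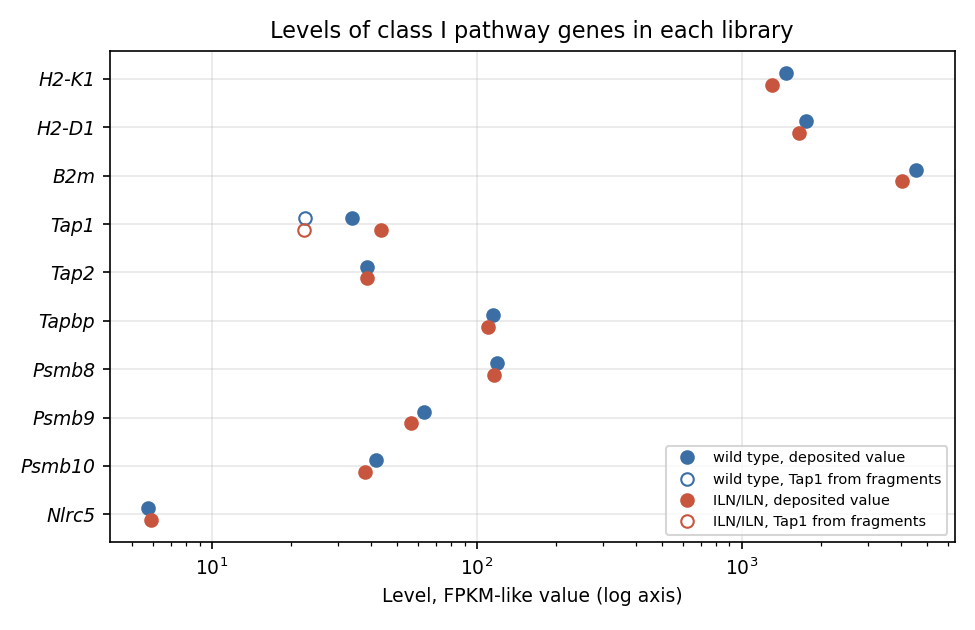
Deposited FPKM-like level of each gene (horizontal log axis) in the wild-type (blue) and ILN/ILN (red) library, 1 library each, with open circles for Tap1 computed from its fragments. B2m, H2-D1 and H2-K1 stand above 1300 in both libraries, the processing and loading genes lie between 22.3 and 119.8, and Nlrc5 is near 6.

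The chains of the class I molecule were the most abundant of these RNAs. B2m, the light chain, had a level of 4567 in wild type and 4025 in ILN/ILN, from 173841 and 142590 fragments. In wild type 10 genes had a higher value, and in ILN/ILN 8 genes did. Its ILN/ILN fragments were 0.881 of wild type after scaling (0.875 to 0.887).

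H2-D1, a classical heavy chain, was at 1756 and 1653, from 129793 and 113713 fragments, a ratio of 0.941 (0.934 to 0.949). H2-K1, the other classical heavy chain, was at 1469 and 1300.5, from 112067 and 92319 fragments, a ratio of 0.885 (0.877 to 0.893). All 3 chains were thus lower in the ILN/ILN library, by 5.90% to 11.9%. Together they took 0.901% of all wild-type and 0.812% of all ILN/ILN fragments.

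B2m and H2-K1 kept nearly the same proportion. The level of B2m was 3.11 times that of H2-K1 in wild type and 3.09 times in ILN/ILN, a ratio of ratios of 0.996 (0.985 to 1.01). B2m over H2-D1 was lower in ILN/ILN, at 2.60 and 2.43, a ratio of ratios of 0.936 (0.926 to 0.946). H2-K1 over H2-D1 was 0.836 and 0.787, a ratio of ratios of 0.940 (0.929 to 0.951). H2-K1 and H2-D1 share sequence with each other and with other class I genes. In their longest GENCODE transcripts, 8.79% of the 50-base words of H2-K1 and 14.3% of those of H2-D1 also occur in another gene. The sources used here do not say how such reads were assigned, so the split between these chains is uncertain, while B2m shared no such word.

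Peptide transport and loading genes were close to equal by fragments. Tap2, a subunit of the transporter, was at 38.7 and 38.6, from 4538 and 4209 fragments, a ratio of 0.996 (0.955 to 1.04). Tapbp, which encodes tapasin, the bridge between the transporter and the empty class I molecule, was at 115.6 and 110.7, from 14434 and 12860 fragments, a ratio of 0.957 (0.934 to 0.980). Tapasin was lower by less than 5% and Tap2 was level within counting error.

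Tap1, the partner of Tap2, gave different answers in the deposited value and in fragments. Its deposited value was 33.7 in wild type and 43.7 in ILN/ILN, a log2 ratio of 0.36 and the highest of the 10 genes. Its fragments were 2978 and 2744, which per length and library size is 22.6 and 22.3, a ratio of 0.990 (0.939 to 1.04). The table lists 2 isoforms for Tap1, and in both libraries the authors' final value was a derived estimate that exceeded the one from fragments. From fragments, Tap1 over Tap2 was 0.583 in wild type and 0.579 in ILN/ILN, a ratio of ratios of 0.993 (0.929 to 1.06). From the deposited values the same proportion was 0.871 and 1.13, so the order of the transporter subunits depends on the estimate.

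**Figure D2:**
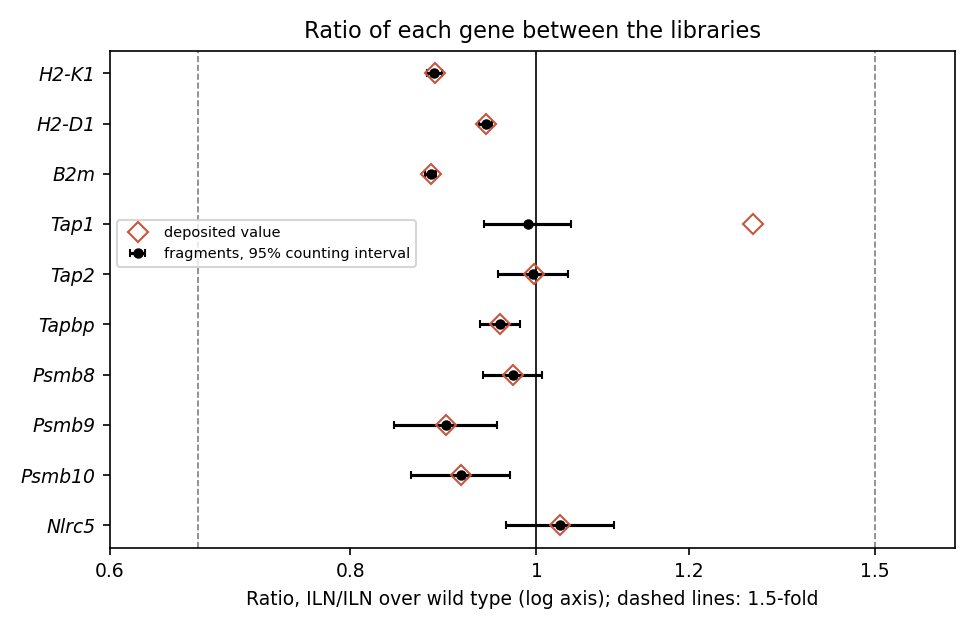
Ratio of ILN/ILN over wild type for each gene on a log axis, from fragments with 95% counting intervals (black points and bars) and from the deposited values (red diamonds), with dashed lines at 1.5-fold. The symbols overlie each other for 9 genes, while Tap1 lies at 0.990 by fragments and 1.296 by deposited value.

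The immunoproteasome subunits were slightly lower or level. Psmb8, the inducible chymotrypsin-like subunit, was at 119.8 and 116.5, from 6684 and 6048 fragments, a ratio of 0.972 (0.938 to 1.01). Psmb9, the inducible partner in the place of Psmb6, was at 63.0 and 56.5, from 2239 and 1870 fragments, a ratio of 0.897 (0.843 to 0.954). Psmb10, which takes the place of Psmb7, was at 41.6 and 38.0, from 2415 and 2053 fragments, a ratio of 0.913 (0.860 to 0.969). The interval of Psmb8 included 1, and those of Psmb9 and Psmb10 lay below it.

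Each inducible subunit was set against the constitutive subunit it replaces. The level of Psmb8 was 1.13 times that of Psmb5 in wild type and 1.04 times in ILN/ILN, a ratio of ratios of 0.923 (0.872 to 0.976). Psmb9 over Psmb6 was 0.347 and 0.319, a ratio of ratios of 0.919 (0.858 to 0.984). Psmb10 over Psmb7 was 0.215 and 0.187, a ratio of ratios of 0.870 (0.814 to 0.929). In both libraries the level of Psmb8 was slightly above that of its counterpart, and RNA of Psmb9 and Psmb10 stayed well below theirs. The step from Psmb8 to Psmb5 was small in ILN/ILN, at 116.5 against 111.7, and no interval was computed for it. All 3 proportions were lower in the ILN/ILN library beyond counting error, with intervals for ratios of ratios from a normal approximation on the log scale. Fragment ratios of single genes of the constitutive core ran from 0.792 for Psmb1 to 1.36 for Psma4.

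**Figure D3:**
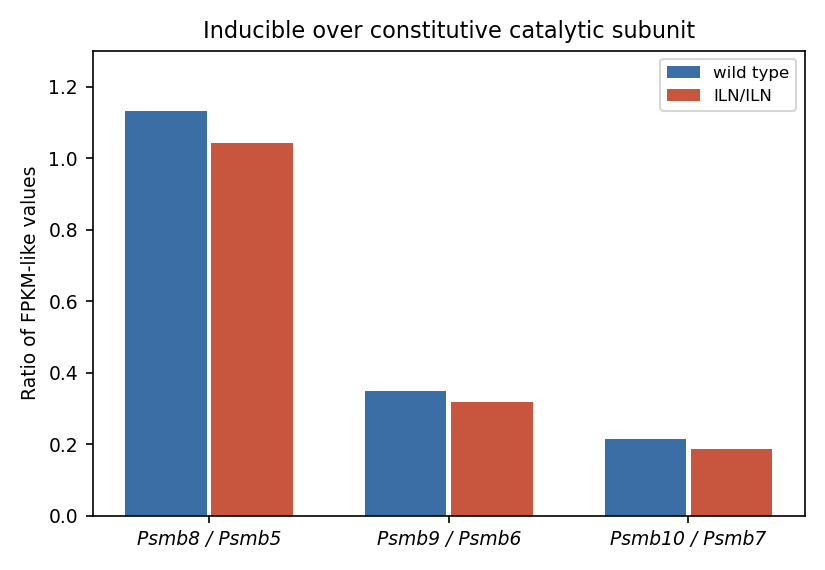
Level of each inducible catalytic subunit divided by that of its constitutive counterpart in the wild-type (blue) and ILN/ILN (red) library, 1 library each, so bars carry no error. The pair Psmb8 and Psmb5 stands at 1.13 and 1.04, Psmb9 and Psmb6 at 0.347 and 0.319, and Psmb10 and Psmb7 at 0.215 and 0.187.

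Nlrc5, the class I transactivator, had the lowest level of the 10 genes. It was at 5.76 in wild type and 5.92 in ILN/ILN, from 1921 and 1839 fragments, a ratio of 1.03 (0.964 to 1.10). Its interval included 1, so no difference was detectable at this depth.

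From fragments, the levels ran in nearly the same order in both libraries. The order was B2m, H2-D1, H2-K1, Psmb8, Tapbp and Psmb9, followed in wild type by Psmb10, Tap2, Tap1 and Nlrc5. In ILN/ILN, Tap2 stood above Psmb10, at 38.6 against 38.0, and their counting intervals overlapped. Psmb8 and Tapbp also overlapped in wild type, at 119.8 and 115.6, and were apart in ILN/ILN. The counting intervals of the other neighbours were apart, and the step from H2-K1 to Psmb8 was 12.3-fold in wild type and 11.2-fold in ILN/ILN. Spread between animals is not known for any of these steps.

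In the RefSeq annotation 7 of the 10 genes lie on chromosome 17, in the MHC, and Psmb9, Tap1, Psmb8 and Tap2 follow each other with 0 genes between them. The divergent neighbours Psmb9 and Tap1, whose promoter windows overlap, had fragment ratios of 0.897 and 0.990. Psmb9 over Tap1 was 2.79 in wild type and 2.53 in ILN/ILN by fragments, a ratio of ratios of 0.906 (0.836 to 0.982). Outside chromosome 17, B2m on chromosome 2 had the lowest ratio, and Psmb10 and Nlrc5 on chromosome 8 stood on either side of 1.

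Further class I heavy chains varied more between genes. Of 25 listed, 13 were measured, 0 were at least 1.5-fold lower or higher on the log2(value + 1) scale, 9 were below 0, and the median log2 ratio was -0.09. Cd1d1, which presents lipids to natural killer T cells, was at 65.2 and 92.4, a ratio of 1.42 (1.36 to 1.47). H2-Q10, a secreted heavy chain known from liver, was at 128 and 181, a ratio of 1.41 (1.37 to 1.45), and H2-K2 was at 4.46 and 2.71 (0.609; 0.493 to 0.750). By fragments H2-K2 was thus 1.64-fold lower, and the pseudocount keeps it inside 1.5-fold. Sharing of sequence was not measured for these genes, so reads of related heavy chains in their values were not tested. Fcgrt, the neonatal Fc receptor that pairs with B2m, was at 424 and 365 (0.861; 0.847 to 0.875).

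Other machinery of the pathway also stayed within 1.5-fold. Of 15 peptide loading partners, which are chaperones, translocon subunits and peptidases, 0 passed 1.5-fold either way, with a median of 0.05. Calr, the chaperone calreticulin of the loading complex, was at 370 and 382. Of 15 genes of the constitutive proteasome core 0 passed either way, with a median of 0.05, and among them Psmb5 was at 106 and 112, Psmb6 at 181 and 177 and Psmb7 at 193 and 203. The 4 proteasome activator genes had a median of 0.03. Psme1, of the interferon-inducible PA28 cap, was at 248 and 244 (0.986; 0.959 to 1.01), and its partner Psme2 at 321 and 340 (1.06; 1.03 to 1.09). The interval of Psme1 included 1 and that of Psme2 lay above it, while Psmb9 and Psmb10 were 10.3% and 8.70% lower.

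Of 14 transcription factors known to act at class I or related genes, 2 were at least 1.5-fold lower and 0 higher, with a median of -0.05. The 2 were Irf8, a factor of B cells and dendritic cells, at 19.2 and 9.82 (0.511; 0.477 to 0.547), and Ciita, the class II transactivator, at 6.44 and 3.15 (0.489; 0.447 to 0.534). Irf1, an interferon-induced activator of class I and immunoproteasome genes, was at 43.04 and 43.08. Nlrc5 thus stood at 1.03 beside 0.489 for Ciita, with intervals that did not overlap.

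In the list of interferon ligands, receptors and kinases, 11 genes were measured and no ligand was among them. The 11 were receptors, kinases, Stat2, Irf9, Socs1 and Socs3, with a median of -0.13. Of these, 1 was at least 1.5-fold lower, Socs1, an inhibitor of the pathway, at 3.25 and 1.82. Of 29 interferon-induced genes 0 were at least 1.5-fold lower and 2 higher on the log2(value + 1) scale, with 14 below 0, 15 above 0 and a median of 0.06. The 2 were Xaf1, at 6.22 and 16.7, and Tgtp1, a guanosine triphosphatase with close copies, at 5.46 and 9.35. Oas3, an interferon-induced oligoadenylate synthetase, was at 2.14 and 1.17 and by fragments 1.83-fold lower (1.57 to 2.15), which the pseudocount keeps inside 1.5-fold. Cxcl9 was at 24.3 and 35.9 (1.475; 1.41 to 1.54), higher but inside 1.5-fold. Igtp, another interferon-induced guanosine triphosphatase, was at 50.21 and 50.17. Lists and members were chosen with earlier results of these data known, so their counts describe these libraries only.

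**Figure D4:**
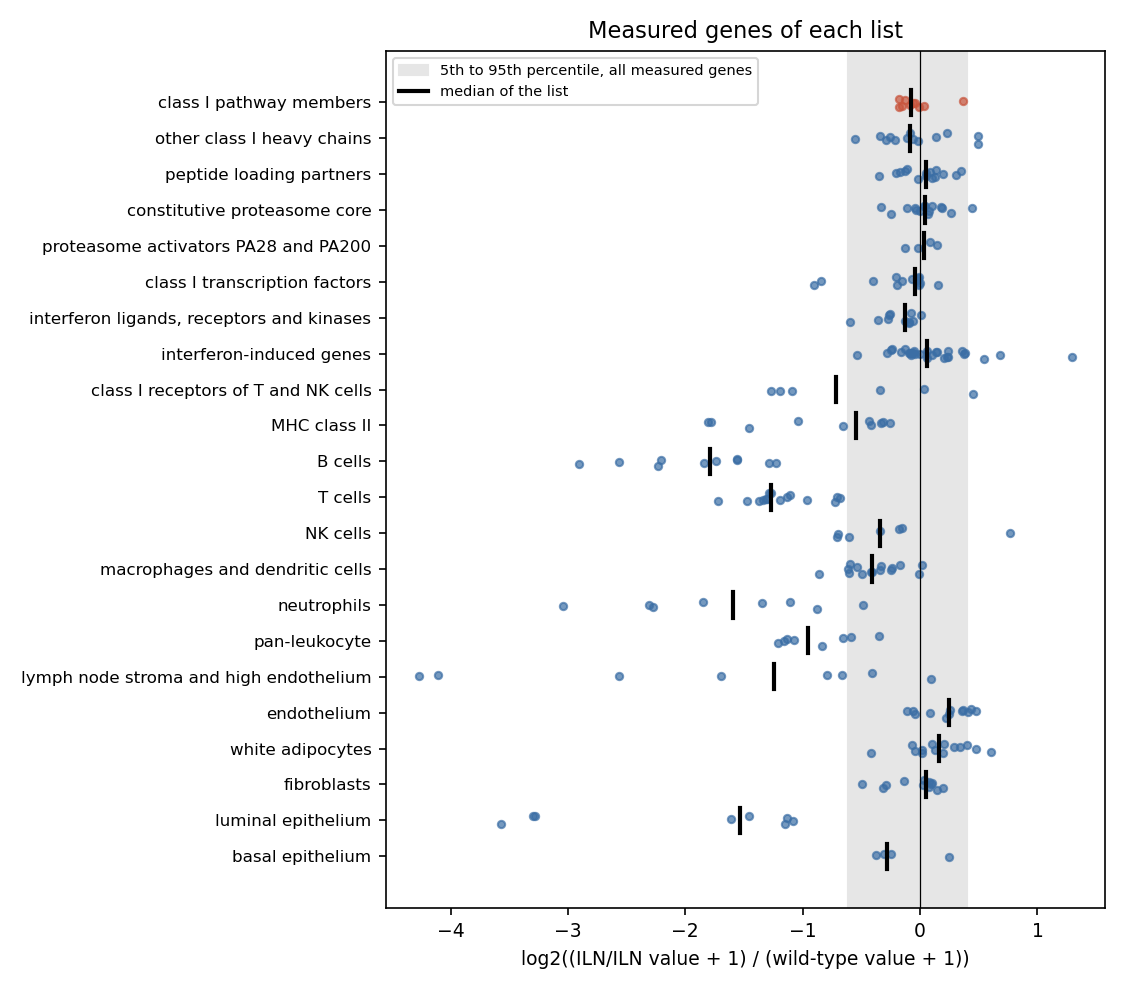
Log2 ratio of (value + 1), ILN/ILN over wild type, for the measured genes of each list (points) with the list median (black line), and the 5th to 95th percentile of all measured genes in grey. The class I pathway genes (red) lie between -0.18 and 0.36, whereas the B cell, T cell, neutrophil and luminal epithelium lists have medians between -1.79 and -1.27.

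MHC class II genes, which display peptides on B cells, macrophages and dendritic cells, differed more. All 10 were below 0, 5 were at least 1.5-fold lower and 0 higher, and the median was -0.54, beside -0.07 for the class I pathway. Cd74, the class II chaperone, was at 2366 and 1504 (0.635; 0.629 to 0.641), and H2-Aa, a class II chain, at 875 and 648 (0.741; 0.730 to 0.752). H2-Ob, which modulates class II loading in B cells, was at 9.16 and 2.70 (0.295; 0.260 to 0.334). Every class I member had a fragment ratio of at least 0.881. With 1 library each, the difference between the classes was not tested.

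**Figure D5:**
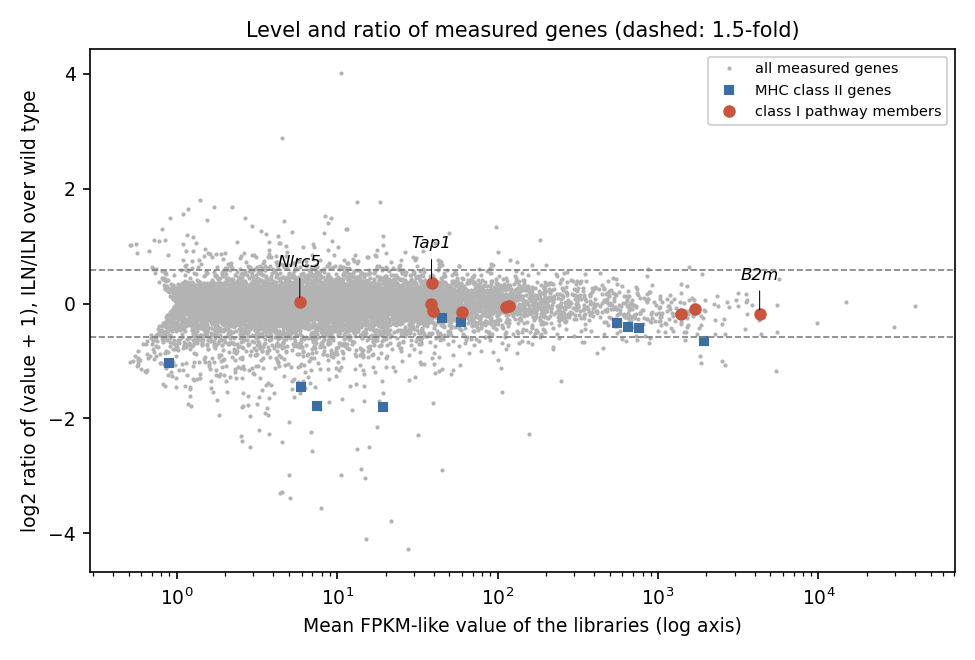
Mean FPKM-like value of both libraries (log axis) against the log2 ratio of (value + 1) for all 11556 measured genes (grey), with class I pathway members in red, MHC class II genes in blue and dashed lines at 1.5-fold. The 10 class I members lie inside the dashed lines, and 5 of 10 class II genes lie below the lower one.

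Markers of several cell types that carry class I molecules differed between the libraries. Summed values of the marker lists were 274 and 68.2 for B cells (10 of 10 measured genes at least 1.5-fold lower), 139 and 53.2 for T cells (15 of 15), 338 and 72.5 for neutrophils (7 of 8), 484 and 259 for genes of all leukocytes (7 of 8) and 3065 and 2198 for macrophages and dendritic cells (4 of 15). They were 31.5 and 25.7 for natural killer cells (3 of 7) and 186 and 70.9 for lymph node stroma and high endothelium (6 of 8). Eomes, a factor of natural killer and T cells, was the 1 gene of these lists at least 1.5-fold higher by value. Its values were 0.759 in wild type and 1.99 in ILN/ILN, of which the ILN/ILN value was a derived estimate. The fragments of Eomes were 130 and 49 (0.405; 0.285 to 0.566). The list medians were -1.79, -1.27, -1.60, -0.95, -0.41, -0.34 and -1.24 in this order. The lymph node list is not of stroma alone. Its lower genes include Fcer2a, which stands in the B cell list too, and the lymphotoxin genes Lta and Ltb. Ltbr, the 1 gene of that list above 0, was at 44.8 and 47.7 (1.07; 1.02 to 1.11). Cd79a, of the B cell receptor, was 8.16-fold lower (7.47 to 8.92), and Ptprc, the common leukocyte antigen CD45, had 3051 and 1432 fragments (1.98-fold lower; 1.86 to 2.11). B2m, at 1.14-fold lower by fragments (1.13 to 1.14), differed by less than Cd79a and Ptprc. The part of these cell types in the small class I differences was not tested.

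Receptors that bind class I molecules were low in both libraries. Cd8b1, a chain of the CD8 coreceptor, was at 9.14 and 3.44 (2.65-fold lower; 2.26 to 3.12). Of 6 measured class I receptors of T and natural killer cells 3 were at least 1.5-fold lower and 0 higher, with a median of -0.72, and 3 of the 6 carried a derived estimate in at least 1 library. One of the lower genes, Klrc2, had 0 fragments in both libraries and only a derived value (1.14 and 0), and Klra8 had 12 and 3 fragments but a log2 ratio of 0.45. The other lower genes were Cd8a, with 447 and 120 fragments (0.288; 0.234 to 0.353), and Cd8b1, with 590 and 207. The count and median of these receptors therefore rest in part on genes with few or no fragments. With no minimum on the value the median was -0.088.

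Stromal and fat markers were steadier. Summed values were 213 and 250 for endothelium (0 of 12 past 1.5-fold, median 0.25), 4463 and 4555 for fibroblasts (0 of 12, median 0.05) and 88380 and 80080 for white adipocytes (1 of 14 higher, 11 above 0, median 0.16). The adipocyte sum and median differ in direction, with Cfd, the secreted protease adipsin, at 33952.5 and 25465.8 the most different term of the sum. Fabp4, the fatty acid binding protein of adipocytes, had 1132988 and 1024709 fragments (0.971; 0.969 to 0.974). Cfd and Fabp4 are among the 3 of 14 adipocyte genes below 0. The 1 past 1.5-fold was Acsl1, at 688 and 1045 (1.52; 1.51 to 1.53), and Cd36 was at 107 and 149 (1.39; 1.37 to 1.42). Several epithelial markers of a mammary gland were at 0 in the ILN/ILN library. Luminal epithelium summed to 44.8 and 1.81, with 8 of 8 measured genes at least 1.5-fold lower (median -1.54), and Krt8, its defining keratin, had 742 and 0 fragments. Elf5 had 51 and 0 fragments, with a wild-type value below 1, and Cldn7 had 45 and 0. Basal epithelium summed to 76.3 and 58.4 (0 of 4 past 1.5-fold, median -0.28). Most of that sum was Acta2, at 56.5 and 43.4, and Myh11, at 11.1 and 8.77. The values of Myh11 involve a derived estimate. Its fragments were 2831 and 2554 (0.969; 0.918 to 1.02), an interval that included 1, so its lower value was not seen beyond counting error in fragments. Of the 4 measured genes 3 were below 0 by value, and Oxtr, at 2.80 and 3.51, was above 0. The basal keratins were low in wild type too and lay outside the 4 measured genes, so the count and median do not cover them. Krt5 had 78 and 0 fragments, Krt14 62 and 0 and Krt17 59 and 0, with wild-type values of 0.801, 0.846 and 0.833, below the minimum of 1. In bulk tissue fewer cells of a type and less RNA per cell cannot be told apart.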

How the data were processed

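Total RNA from mammary gland was selected for polyadenylated RNA and made into strand-marked libraries of about 200 bp fragments, run on 2 lanes each, per the labels' protocols. Build mm9, TopHat 1.4.1, Bowtie 0.12.3 and bedtools are listed in the submitters' processing notes without their roles. The authors deposited 1 gene table per library, whose FPKM-like value equals a signal per kilobase over a constant, 48.6 for wild type and 45.2 for ILN/ILN. Another deposited column is log2(value + 1). Per the file headers the signal has an original and a derived estimate, and in the values the final one was the higher of them. The sources used here give neither the program, nor its annotation, nor its use of strand.

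The original estimate times the deposited length was a whole number within 0.01 in every gene with a length, and is called fragments; 38 genes were below the authors' length limit. Ratios of fragments use library totals, with exact conditional (Clopper-Pearson) 95% intervals. Levels were compared with exact Poisson intervals. Log2 ratios use a pseudocount of 1, and a gene was measured where its value reached 1 in one or both libraries. With 1 library per genotype there was no test. A count of 0 allows up to 3 fragments. Alternatives were other pseudocounts, minimums, fold thresholds and scalings, and fragments in place of deposited values.

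Members and 21 gene lists were chosen with earlier results of these data known. All members were named, and from each list up to 4 measured genes with the largest ratio and 2 with the highest level could be, besides the subunits paired with members. Epithelial markers at 0 fragments were named after their values were seen. On simulated libraries of 11499 genes, 96 of 100 genes set 2-fold higher and 87 of 100 set 2-fold lower passed 1.5-fold, as did 1 of 11299 genes with no difference, and intervals covered the simulated ratio in 94% to 96% of genes. These libraries held counting error only. Promoter sequences are RefSeq's (GRCm38.p6), which matched 8 of the 10 members. The windows of H2-K1 and H2-D1 were aligned end to end with free end gaps (Biopython 1.88). Python 3.11.15, SciPy 1.17.1 and pandas 2.3.3 were used.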

Additional observations from a re-analysis of the deposited data

How the results depend on the processing

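With 1 library per genotype, no replicate could be left out and no paired analysis was possible because each genotype has 1 sample. For the 10 members the counts past 1.5-fold stayed 0 each way with either other pseudocount, either other scaling, either other minimum, a threshold of 2-fold and fragments in place of deposited values. At a threshold of 0.32 on the log2 scale 1 member, Tap1, counted as higher. From fragments its log2 ratio was -0.014 in place of 0.36, and the basal epithelium median was -0.14. Scaling to a median ratio of 1 shifted ILN/ILN ratios down by 0.02 and gave -0.20 for H2-K1, -0.11 for H2-D1, -0.20 for B2m and 0.14 for the white adipocyte median. Scaling by the trimmed mean of M-values moved no result beyond its counting interval.

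The counts over all genes, 623 lower and 220 higher, stayed within 1.5 times under either other scaling, with no minimum and from fragments. They were 225 and 67 with a pseudocount of 5, 354 and 140 once the minimum was 5, 199 and 47 at 2-fold and 1534 and 985 at the log2 threshold of 0.32, and 887 and 354 with a pseudocount of 0.1. With a pseudocount of 0.1 the list medians were -2.21 for B cells, -2.16 for neutrophils, -1.69 for lymph node stroma and -3.69 for luminal epithelium. With a pseudocount of 5 they were -0.22 for class I receptors, -0.42 for MHC class II, -1.15 for B cells, -0.74 for T cells, -0.30 for macrophages and dendritic cells, -0.85 for neutrophils, -0.79 for all leukocytes and -0.83 for lymph node stroma. With no minimum they were -0.088 for class I receptors and -0.79 for lymph node stroma. With a minimum of 5 they were -1.23 for class I receptors, -0.43 for MHC class II, -2.03 for B cells, -1.07 for all leukocytes, -2.13 for lymph node stroma and -3.30 for luminal epithelium. Measured genes in these lists ran from 6 for class I receptors to 15 for T cells and for macrophages and dendritic cells. Several had low values, and a pseudocount pulls the ratios of low values toward 0. The cause of the other shifts was not tested.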

Other observations

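The gap between deposited value and fragments in Tap1 is part of a wider feature of the table. Among 10748 measured genes with at least 100 fragments in both libraries, the log2 ratio from deposited values and the one from fragments were apart by at least 0.3 in 260 genes (2.42%). All 260 were listed with more than 1 isoform, out of 2251 such genes (11.6%). By deposited value 115 of them were higher and 145 lower than by fragments, and 80 genes of the 115 had a gap larger than that of Tap1. Tapbp also has 2 listed isoforms, but its final value came from fragments in both libraries.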
